A study of Mus musculus with 2 samples.

Results

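The histone cluster genes are the 67 genes, of 32285 in the deposited count tables, whose symbols begin with Hist1h, Hist2h, Hist3h or Hist4h. They were chosen by symbol alone, with no measured value. They comprise 6 H1 genes, 18 H2A genes, 18 H2B genes, 12 H3 genes and 13 H4 genes. Their UMIs (unique molecular identifiers, 1 for each captured RNA molecule) were counted in single mouse thymic epithelial cells, the stromal cells that support and select developing T cells. One library was labelled Foxp1 KO and came from Cre+ mice. The other was labelled Foxp1 WT and came from Cre- mice. For both, thymus tissue was broken up mechanically and by digestion (liberase, DNase), enriched on Percoll, and sorted for live EPCAM+ cells. Not given in the sources used here are the Cre driver, the deleted part of Foxp1, and the number, age and sex of the mice. The series title concerns Foxp1 in Fezf2-dependent expression, in mimetic medullary cells and in central tolerance.

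Nucleosomes wrap DNA around an octamer of the core histones H2A, H2B, H3 and H4, and linker histone H1 binds the DNA between them. The clustered genes are the classical source of replication-dependent histones, which package newly made DNA in S phase. Most of their messages end in a short conserved stem-loop in place of a poly(A) tail. The stem-loop is bound by the protein SLBP, and the message is degraded when replication stops. Some clustered genes can also give polyadenylated messages that persist in cells that do not divide. Replacement histones, encoded outside the clusters, are made through the cell cycle.

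The 3' end is where members differ in form, so the stem-loops of 6 members with many UMIs are shown first, from the GENCODE M21 transcripts (GRCm38). Capitals mark the 16 bases of the stem-loop, and the lower-case letters are the bases around it. Hist1h2ap lies on the minus strand at chr13:21833029-21833044, Hist1h2ae on the minus strand at chr13:23570668-23570683, and Hist1h4h on the plus strand at chr13:23531458-23531473. Hist1h1c lies on the plus strand at chr13:23739512-23739527, Hist3h2a on the plus strand at chr11:58955172-58955187, and Hist4h4 on the minus strand at chr6:136803998-136804013.
Hist1h2ap: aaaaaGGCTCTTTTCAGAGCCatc
Hist1h2ae: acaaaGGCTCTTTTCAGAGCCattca
Hist1h4h: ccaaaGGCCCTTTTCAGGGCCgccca
Hist1h1c: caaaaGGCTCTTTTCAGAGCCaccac
Hist3h2a: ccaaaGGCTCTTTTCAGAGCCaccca
Hist4h4: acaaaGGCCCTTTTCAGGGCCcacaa
The letters of the stem-loop are the same in Hist1h2ap, Hist1h2ae, Hist1h1c and Hist3h2a. What follows it is not the same. The annotated transcript ends 3 bases after the stem-loop in Hist1h2ap, 46 bases after it in Hist1h4h and 151 bases after it in Hist1h2ae. It runs on for 840 bases in Hist1h1c, 1643 bases in Hist3h2a and 2445 bases in Hist4h4. A stem-loop was found in the annotated transcripts of 33 of the 67 members. It was searched as GGC, T or C, CTTTTCAG, A or G, then GCC, so a stem-loop with other letters counts as not found. Some members without a match had many bases after the stop codon, such as Hist2h2be with 2192. The models of 13 members end at the stop codon, so their 3' ends could not be read this way.

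Of the 67 genes, 54 lie on chromosome 13, 10 on chromosome 3, 2 on chromosome 11 and 1 on chromosome 6. The 54 fall into 4 blocks of 18, 5, 29 and 2 genes between positions 21715763 and 23934851. Head to head, 13 pairs of members start within 1000 bases of each other. The promoters of 4 members are shown, for Hist1h2ap and Hist1h1b with UMIs mostly in cycling cells, Hist1h1c with UMIs mostly outside them, and Hist1h2ac, whose promoter faces that of the most abundant member. They are the bases before the annotated start, from RefSeq (GRCm38.p6). Capitals mark the CCAAT box, the TATA box (searched as TATAAA), the octamer known from H2B promoters (searched as ATTTGCAT) and an element known from H1 promoters (searched as AAACACA). Each was read on both strands, and none of these motifs contains another. Hist1h2ap is chr13:21833508-21833725 (minus strand), Hist1h2ac is chr13:23683960-23684209 (minus strand), Hist1h1b is chr13:21780626-21780875 (minus strand) and Hist1h1c is chr13:23738557-23738806 (plus strand).
Hist1h2ap: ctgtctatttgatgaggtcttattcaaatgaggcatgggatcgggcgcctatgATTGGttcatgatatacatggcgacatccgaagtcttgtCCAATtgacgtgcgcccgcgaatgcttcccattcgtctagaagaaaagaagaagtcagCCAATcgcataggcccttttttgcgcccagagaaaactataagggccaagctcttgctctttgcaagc
Hist1h2ac: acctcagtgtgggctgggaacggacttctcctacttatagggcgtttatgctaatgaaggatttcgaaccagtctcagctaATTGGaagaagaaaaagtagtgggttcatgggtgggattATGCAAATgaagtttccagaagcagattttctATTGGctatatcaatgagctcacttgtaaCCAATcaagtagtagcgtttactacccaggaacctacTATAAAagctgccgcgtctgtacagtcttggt
Hist1h1b: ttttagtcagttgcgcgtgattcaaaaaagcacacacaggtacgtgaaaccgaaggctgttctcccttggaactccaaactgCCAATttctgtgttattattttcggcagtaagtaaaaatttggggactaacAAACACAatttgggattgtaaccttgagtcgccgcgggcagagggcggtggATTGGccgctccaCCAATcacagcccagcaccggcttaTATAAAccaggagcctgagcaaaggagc
Hist1h1c: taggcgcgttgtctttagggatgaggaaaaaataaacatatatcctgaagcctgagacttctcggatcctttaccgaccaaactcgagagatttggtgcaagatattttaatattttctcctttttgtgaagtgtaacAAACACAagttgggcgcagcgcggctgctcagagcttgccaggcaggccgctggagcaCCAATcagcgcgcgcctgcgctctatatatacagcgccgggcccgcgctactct
Over 300-base windows around the start, CCAAT was present in 85.5% of the 62 members with a RefSeq promoter and in 37.4% of all 32544 promoters. It was held by all H1, H2A, H2B and H3 promoters and by 3 of the 12 H4 promoters. TATAAA was present in 56.5% of the members' promoters and in 13.6% of all promoters. The octamer was present in 21% and in 1.75%, and its 13 members were 7 of 18 H2A genes and 6 of 16 H2B genes. AAACACA was present in 14.5% of the members' promoters, 5 of the 6 H1 genes among them, and in 7.2% of all promoters. These matches describe letters, not binding. The Hist1h2ac promoter also spans most of the 251 bases to the start of Hist1h2bc, which runs the other way on chr13:23684199-23692908. Hist1h2ac had 300 UMIs in epithelial cells and Hist1h2bc had 11826. Hist1h2ap, 236 bases from its partner Hist1h2br, had 2770 UMIs against 183.

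The libraries held 4277 barcodes with 25233944 UMIs (KO) and 4957 barcodes with 33120715 UMIs (WT), and shared 5 barcode sequences, 3 of them among the cells kept. Of the cells kept, 3266 and 3883 were epithelial by cluster, with medians of 5218.5 and 6356 UMIs. Epcam was detected in 42.9% to 96% of the cells of the 14 epithelial clusters, and in 5.41% to 47.1% of the cells of the endothelial-like, fibroblast-like, thymocyte-like and mesothelial-like clusters. Whole-gene Foxp1 goes against the labels. It stood at 405 CPM (UMIs per 1000000 UMIs) [397–413] in the library labelled KO and 252 [247–258] in the library labelled WT. The labels' genotype field reads KO for both, so the groups rest on the titles and the library names. Since the deleted part is not known, this count over the whole gene does not check the deletion. Each condition is 1 library, so no difference between libraries was tested. Brackets give exact 95% intervals that cover counting error only.

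Together the 67 members took 14484 UMIs in the epithelial cells of the library labelled KO, or 647 CPM [636–657]. They took 18956 UMIs, or 616 CPM [608–625], in the library labelled WT. Of the 67, 12 had fewer than 30 UMIs over both libraries and 4 fewer than 10. CPM here is a share of captured molecules and is not divided by gene length. One gene dominated this sum. Hist1h2bc, an H2B gene, had 234 CPM in the library labelled KO and 214 CPM in the library labelled WT. Hist1h1c, a linker histone gene, followed with 66.9 and 66.7 CPM. Hist1h2ap, an H2A gene, had 50.4 and 53.4 CPM. Hist1h2ae, another H2A gene, had 44.2 CPM in the library labelled KO and 35.3 CPM in the library labelled WT. The testis histone genes were at or near 0 in epithelial cells: Hist1h2ba had 0 UMIs, Hist1h2aa had 2 and Hist1h1t had 6.

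Cells were sorted into ranges of the cell cycle with lists of S and G2M genes that hold no histone gene. Each cell of at least 2000 UMIs was thinned to 2000. It was called cycling if it then held at least 4 UMIs of either list, and non-cycling if it held at most 1 UMI of each. Cycling cells numbered 224 of 2777 in the library labelled KO, or 8.07% [7.08–9.14], and 249 of 3455 in the library labelled WT, or 7.21% [6.37–8.12]. Non-cycling cells numbered 2000 and 2501, and 553 and 705 cells lay between. These ranges are cuts in a count, not cell types. A highest list count of exactly 3, just under the line, was held by 158 and 183 cells, and one of exactly 4 by 66 and 78 cells. Cycling cells were deeper, with medians of 9970 and 11462 UMIs against 6020 and 6864 in non-cycling cells. Summed thymocyte markers were lower in them, at 31.2 and 32.6 CPM against 46.9 and 55.4 CPM.

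The summed level of the members was higher in cycling cells in both libraries. It was 1616 CPM [1566–1667] in cycling against 525 CPM [513–537] in non-cycling cells of the library labelled KO, a ratio of 3.08 [2.96–3.2]. In the library labelled WT it was 1283 CPM [1244–1323] against 527 CPM [517–537], a ratio of 2.44 [2.35–2.53]. The excess was unevenly spread over the cycle. In the 36 and 30 cells that passed both lists it reached 2977 CPM [2840–3118] and 2843 CPM [2686–3007]. Cells that passed the G2M list alone had 1454 CPM [1388–1524] and 1401 CPM [1345–1460]. Cells that passed the S list alone had 656 CPM [595–722] and 530 CPM [489–574], so that in the library labelled WT they stood at the non-cycling level, with a ratio of 1.01 [0.926–1.09]. Cells between the cuts had 543 and 555 CPM, close to non-cycling cells. Without Hist1h2bc the cycling ratio was 4.59 and 3.51. In cells past the S list alone the ratio without Hist1h2bc was 1.79 [1.6–2] (KO) and 1.34 [1.22–1.47] (WT), above the non-cycling level in both libraries.

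Of the 67 members, 52 had the 30 UMIs over cycling and non-cycling cells needed for a ratio, and 15 did not. This minimum is a sum over both kinds of cell, so a member could enter mostly through its cycling UMIs. Hist1h3b, for example, entered with 15 and 17 cycling UMIs beside 1 and 3 non-cycling UMIs. The same minimum was applied to all genes. Past 2-fold in both libraries, 31 of the 52 were higher in cycling cells, where 3.09% of all 19641 genes with that minimum were. None was lower by 2-fold in both libraries, where 6.12% of all genes were, and 21 were neither. With a minimum of 100 UMIs, which fewer members reach, 11 were higher. The minimum changes which members enter and not their ratios, and the share over all genes at that minimum is not given here. The median log2 ratio over the 52 members was 1.85 in the library labelled KO and 1.34 in the library labelled WT, beside -0.17 and -0.16 over all genes. By class, 9 of 12 H2A genes with the minimum were higher, 10 of 14 H2B genes, 6 of 10 H3 genes, 3 of 5 H1 genes and 3 of 11 H4 genes. By locus, 29 of 41 Hist1 genes and 2 of 8 Hist2 genes were higher, and neither the 2 Hist3 genes nor Hist4h4 was.

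**Figure D1:**
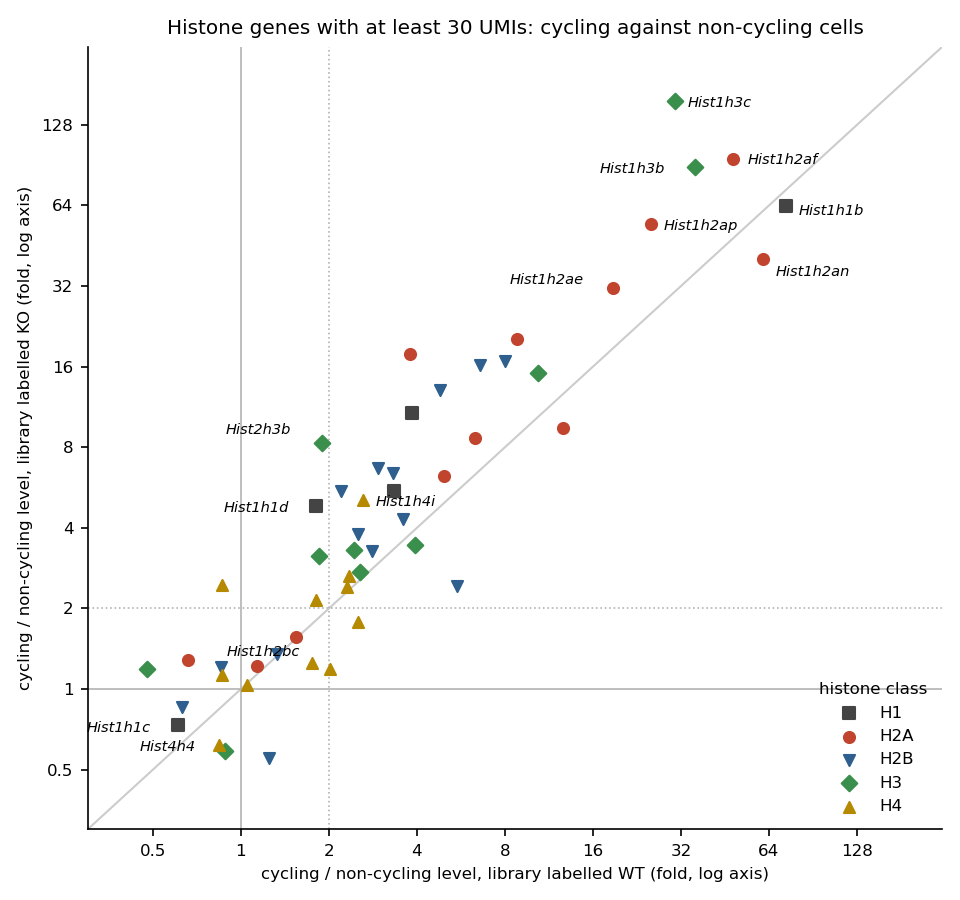
Each point is 1 of the 52 histone genes with at least 30 UMIs, placed by its cycling over non-cycling ratio in the library labelled WT (x axis, fold, log axis) and in the library labelled KO (y axis, fold, log axis), with the histone class as colour and shape. Solid lines mark a ratio of 1 and dotted lines 2, the 31 genes past 2-fold in both libraries lie at the upper right, and Hist1h1c and Hist4h4 lie below 1 in both.

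Among the core histones, H2A genes held most of the excess. Their sum was 834 CPM in cycling and 67.9 CPM in non-cycling cells of the library labelled KO, a ratio of 12.3 [11.4–13.3], and 705 against 86.6 CPM in the library labelled WT, a ratio of 8.14 [7.64–8.66]. The H3 sum had ratios of 3.92 [3.26–4.71] and 2.82 [2.35–3.37], and the H4 sum 1.88 [1.67–2.11] and 1.5 [1.34–1.66]. The H2B sum, which holds Hist1h2bc, had ratios of 1.41 [1.31–1.52] and 1.07 [0.993–1.15]. Without Hist1h2bc the H2B ratio was 2.71 [2.32–3.16] and 2.31 [2.01–2.66]. The H1 sum had ratios of 1.97 [1.76–2.21] and 1.51 [1.35–1.68].

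Hist1h2ap and Hist1h2ae carried most of the H2A signal. Hist1h2ap stood at 7.1 CPM in non-cycling cells of the library labelled KO, 135 CPM in cells past the S list alone, 1025 CPM in cells past both lists and 206 CPM in cells past the G2M list alone. In the library labelled WT the same values were 14.9, 125, 1111 and 360 CPM. The cycling ratio was 54.5 [44.4–67.3] and 25.3 [22.3–28.8]. Both libraries thus peaked where both lists were passed, and their intervals there overlapped ([945–1109] and [1014–1215]). Of the 591 Hist1h2ap UMIs in cells of the library labelled WT past the G2M list alone, 87 came from 1 cell of the larger tuft-like cluster. Hist1h2ae followed the same order, from 10 and 12 CPM in non-cycling cells to 744 [677–817] and 655 [581–737] CPM in cells past both lists, with ratios of 31.3 [26.2–37.6] and 18.8 [16.3–21.8]. Of the 90-base stretches of the Hist1h2ap transcript, 92.4% also occur in another member, chiefly Hist1h2ao, which had 15 UMIs. The assignment between such copies is uncertain. How reads that match several genes were counted is also not known here.

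Many of these UMIs lay in cells that held several members. At 2000 UMIs per cell, 32 (KO) and 29 (WT) of the cycling cells held at least 4 different members. They held 602 of the 953 Hist1h2ap UMIs and 917 of the 1212 Hist1h2ap UMIs of the cycling cells of their libraries. Hist1h2ap is itself counted among the members that picked these cells, so this share is partly set by the choice. Of these cells, 25 and 20 lay in the cluster whose markers are those of cycling cells. The share with at least 4 members was 38.9% and 36.7% of cells past both lists, and 1.35% and 2.04% of non-cycling cells. The median number of different members per thinned cell was 3 and 3 in cells past both lists, 1 and 1 in cells past the G2M list alone, and 0 and 0 in cells past the S list alone.

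At the same depth, a Hist1h2ap UMI was found in 55.6% [38.1–72.1] and 46.7% [28.3–65.7] of cells past both lists (72.2% and 76.7% before thinning). It was found in 1.35% [0.891–1.96] and 2.56% [1.98–3.26] of non-cycling cells (4.05% and 9.84% before thinning). In endothelial-like cells, with medians of 3908 and 6706 UMIs, the thinned share was 4% [1.74–7.73] and 2.33% [0.283–8.15]. Those endothelial-like cells were not split by the cell cycle. In the non-cycling endothelial-like cells Hist1h2ap stood at 12.1 and 17.8 CPM on 11 and 10 UMIs, no lower than its 7.1 and 14.9 CPM in non-cycling epithelial cells. Over both libraries its non-cycling level ran from 2.08 CPM in the gut or liver-like cluster to 37.7 CPM in unnamed cluster 10, on 2 and 11 UMIs, and the part of free RNA in it was not tested. A UMI of any member was found in 61.2% and 57.8% of cycling cells and 52.9% and 54.7% of non-cycling cells, a smaller contrast than that of Hist1h2ap.

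Other members were nearly silent outside cycling cells. Hist1h1b, a linker histone gene with no transcript stretch shared with another member, had 13 UMIs in non-cycling and 139 in cycling cells of the library labelled KO, or 0.887 and 56.4 CPM. In the library labelled WT it had 14 and 163 UMIs, or 0.689 and 50.6 CPM. The ratios were 63.6 [36–122] and 73.4 [42.5–137]. They were the highest of the 52 members when each is ranked by the lower of its ratios. Cells past both lists had 138 [110–172] and 160 [125–203] CPM of Hist1h1b. The intervals of the libraries overlapped, and no near-identical copy of it lies among the members, unlike for Hist1h2ap. Hist1h3c, an H3 gene, had 2 UMIs in non-cycling and 53 in cycling cells of the library labelled KO, a ratio of 158 [41.5–1334], and 7 and 34 UMIs in the library labelled WT, a ratio of 30.6 [13.4–81.9]. Hist1h2af, an H2A gene, had ratios of 95.1 [24.3–819] and 48.3 [14.6–251] on 2 and 3 non-cycling UMIs. Hist1h2an, also H2A, had ratios of 40.4 [15.7–132] and 60.9 [18.9–313], on 5 and 3 non-cycling UMIs. The width of these intervals comes from the few UMIs in non-cycling cells. Hist1h3b, on 1 and 3 non-cycling UMIs, had ratios of 89.2 and 35.7. Hist1h2ak had ratios of 17.8 and 13.9 but had fewer than 30 UMIs over cycling and non-cycling cells, with 36 over all epithelial cells.

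**Figure D2:**
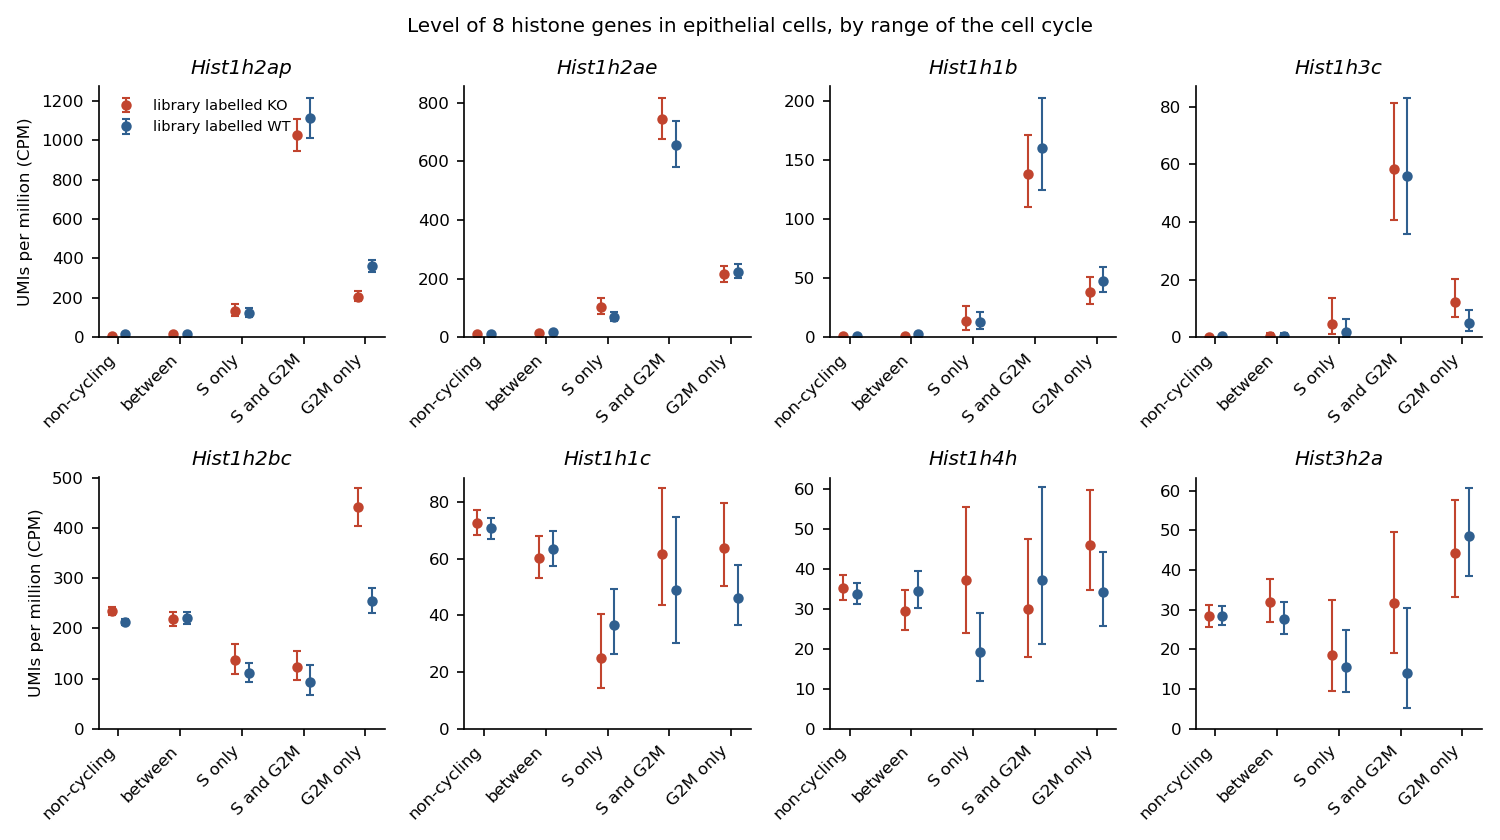
CPM (y axis, linear and different for each gene) of 8 histone genes in epithelial cells by range of the cell cycle (x axis), with exact Poisson 95% intervals that cover counting error only. Hist1h2ap, Hist1h2ae, Hist1h1b and Hist1h3c stand highest in cells past both lists, and Hist1h2bc is at 123 and 93 CPM there against 235 and 213 CPM in non-cycling cells.

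Another set of members was as abundant in non-cycling as in cycling cells. Hist1h2bc stood at 235 and 213 CPM in non-cycling cells of the libraries labelled KO and WT. It was at 136 and 111 CPM in cells past the S list alone and 123 and 93 CPM in cells past both lists. In cells past the G2M list alone it was at 442 CPM [405–481] and 256 CPM [232–281]. So it was below its non-cycling level in the range where Hist1h2ap and Hist1h1b were highest. Over all cycling cells its ratio was 1.21 [1.11–1.31] in the library labelled KO and 0.854 [0.782–0.931] in the library labelled WT, on opposite sides of 1. On the log2 scale the first became -0.0104 when 6 list UMIs made a cell cycling, and the second 0.0424 when cycling cells were set by cluster, so neither side held under every alternative. At 2000 UMIs per cell a Hist1h2bc UMI was found in 30.1% and 27.9% of non-cycling cells and 29.5% and 25.7% of cycling cells. In endothelial-like cells the share was 34% and 18.6%.

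Hist1h1c was lower in cycling cells of both libraries. It stood at 53.2 against 72.6 CPM in the library labelled KO, a ratio of 0.732 [0.606–0.878]. In the library labelled WT it stood at 43.1 against 70.7 CPM, a ratio of 0.61 [0.509–0.727]. Its lowest values were in cells past the S list alone, at 24.8 and 36.6 CPM. Against the pooled non-cycling cells the linker histone genes therefore ran in both directions, with Hist1h1b high in cycling cells and Hist1h1c low. For Hist1h1c this depends on the cells compared. The cycling-like cluster held 50% and 41.8% of the cycling cells. Its own non-cycling cells had 12.2 and 21.5 CPM of Hist1h1c, below the 53.2 and 43.1 CPM in the cycling cells of all clusters. The level in the cycling cells of that cluster alone is not given here, so a direction within it is not shown. The part of the cluster mix in the ratio was not tested. Hist1h1e had ratios of 5.49 [4.03–7.46] and 3.33 [2.42–4.55], but its model overlaps that of Hist1h2be on the same strand. Hist1h1d had ratios of 4.84 [3.18–7.35] and 1.8 [1.04–3].

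Other members stood near or below a ratio of 1. Hist1h4h, an H4 gene, had ratios of 1.13 [0.902–1.41] and 0.864 [0.689–1.07]. Hist3h2a, an H2A gene that overlaps Trim17 on the same strand, had ratios of 1.22 [0.952–1.54] and 1.14 [0.913–1.4]. Hist1h2be, an H2B gene, had ratios of 1.35 [0.886–2.01] and 1.33 [0.912–1.9]. Hist4h4, the single gene of its locus, had ratios of 0.619 [0.37–0.983] and 0.839 [0.565–1.21], the first of which turned to a log2 ratio of 0.17 with cycling cells set by cluster. Hist2h2be, an H2B gene, was at 0.86 [0.412–1.63] and 0.63 [0.293–1.21], and Hist2h3c1, an H3 gene, at 0.587 [0.245–1.21] and 0.88 [0.438–1.62]. The intervals of both genes include 1 in both libraries. Hist1h4a was at 1.03 and 1.05. Among H4 genes the ratio was higher in Hist1h4i, at 5.08 [4.01–6.43] and 2.61 [2.08–3.26], and Hist1h4d, at 2.65 [1.86–3.74] and 2.35 [1.77–3.09]. The nearest to the line inside it were Hist1h2bf, at 5.49 and 2.21, and Hist1h4n, at 2.41 and 2.31. The nearest outside it were Hist2h3b, at 8.32 and 1.89, and Hist1h3e, at 3.13 and 1.85.

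The annotated 3' ends differed between these sets. The median length after the stop codon was 80 bases over the 31 members higher in cycling cells and 503 bases over the 21 that were neither. More than 300 bases followed the stop codon in 7 of the 31 and in 14 of the 21. A poly(A) signal hexamer lay in the last 50 bases of 3 of the 31 and 11 of the 21. A stem-loop of the searched letters was found in 16 of the 31 and 13 of the 21, which does not show that the others lack one. Hist1h2bc had 742 bases after the stop codon in a model of 2 exons and no stem-loop was found in it. Annotated length describes the model, not the molecules captured. The sets also differ in abundance, with medians of 101 and 278 UMIs, and 6 of the 31 models and 1 of the 21 end at the stop codon. The part of these differences in the counts was not tested.

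**Figure D3:**
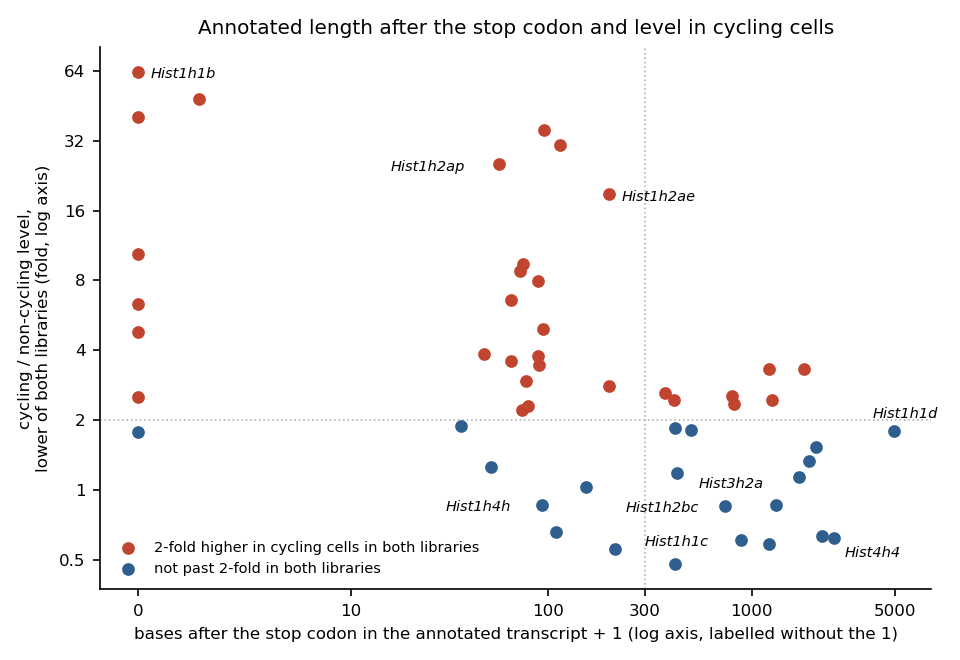
Each point is 1 of the 52 histone genes with at least 30 UMIs, with the bases after the stop codon in its annotated transcript (x axis, log axis) and the lower of its cycling over non-cycling ratios in both libraries (y axis, fold, log axis). All 7 genes with the highest values on the y axis have fewer than 300 annotated bases after the stop codon, and Hist1h1c, Hist1h2bc, Hist3h2a and Hist4h4 have more. Among the 7, the models of Hist1h1b and Hist1h2an end at the stop codon and that of Hist1h2af 1 base after it, so their 3' ends cannot be read here.

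Genes that act on histone messages and proteins were counted in the same way. None of 14 histone mRNA factors was past 2-fold in both libraries, where 3.09% of all genes were higher in cycling cells and 6.12% lower. The nearest was Slbp, which encodes the stem-loop binding protein, at 126 against 59.8 CPM in the library labelled KO, a ratio of 2.1 [1.84–2.4], and 105 against 61.7 CPM in the library labelled WT, a ratio of 1.7 [1.5–1.91]. Eri1, an exonuclease that trims the stem-loop, had ratios of 1.83 and 1.69, and Ncbp1, a cap-binding subunit, 1.23 and 1.32. The lowest were Hinfp, an H4 promoter factor, at 0.628 and 0.817, and Sympk, a cleavage scaffold, at 0.933 and 0.821. Among 17 histone chaperones 4 were higher and none was lower, beside the same 3.09% and 6.12% of all genes. The 4 were Asf1b at 7.57 and 8.07, Chaf1a at 2.94 and 4.99, Nap1l1 at 2.59 and 2.71, and Anp32e. The lowest ratios were those of Ubn1 (0.789 and 0.784) and Daxx (0.816 and 0.71), which act in replication-independent deposition of H3.3.

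Of 11 replacement histone genes, 4 were higher in cycling cells and none was lower, beside 3.09% and 6.12% of all genes. Cenpa, the centromeric H3, had ratios of 19.9 and 16.2. H2afx, the variant phosphorylated at DNA breaks, had ratios of 5.2 and 3.94. H2afz, the variant H2A.Z, stood at 1729 against 413 CPM in the library labelled KO and 1365 against 372 CPM in the library labelled WT. H2afz alone thus gave more UMIs in cycling cells than the 67 cluster genes together, at 1616 and 1283 CPM. This compares captured molecules, not messages in the cell. How well messages without a poly(A) tail were captured is not known here. H1fx, a linker histone variant, had ratios of 2.91 and 3.63. It was the 1 of the 11 past 1.5-fold between the libraries, at 13.2 CPM (KO) against 5.81 CPM (WT) in non-cycling cells. Over all genes, 8.77% in cycling and 6.81% in non-cycling cells were higher under the KO label by that line, so 1 of 11 is near that share. The lowest were H2afj, at 0.849 and 0.762, and H2afy, at 1.13 and 1.15. The lists that defined cycling cells had 34 of 37 S genes and 41 of 42 G2M genes past the same line, which their use fixes.

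In non-cycling cells the level of the members varied between epithelial clusters. Their summed level over both libraries ran from 217 CPM in cluster 0 and 325 CPM in cluster 2, both Ccl21 mTEC-like, through 467 CPM in the Aire-stage mTEC-like cluster, to 672 CPM in the keratinocyte-like, 800 CPM in the larger tuft-like and 865 CPM in the microfold-like cluster. Hist1h2bc had a wide range among them. It had 46.8 CPM [35.2–60.9] and 68.3 CPM [56.4–81.9] in cluster 0, in the libraries labelled KO and WT, and 542 CPM [466–627] and 492 CPM [429–562] in the microfold-like cluster. The intervals of these clusters do not overlap in either library. Hist1h2bc was also high in unnamed cluster 10 (582 and 399 CPM) and in the gut or liver-like cluster (518 and 340 CPM). Hist1h1c had 12.8 and 20.8 CPM in cluster 0, 12.2 and 21.5 CPM in the cycling-like cluster and 162 [138–189] and 192 [174–212] CPM in the larger tuft-like cluster. Over all 14 clusters and both libraries, Hist1h4h ran from 7.34 CPM in cluster 0 to 95 CPM in the microfold-like cluster. Hist4h4 was lowest in the microfold-like cluster, at 1.28 CPM, and highest in unnamed cluster 7, at 43.1 CPM on 14 UMIs, a cluster with Epcam in 42.9% of cells. In the larger tuft-like cluster it had 26.7 and 24.9 CPM, above its 12.8 and 13.1 CPM in cluster 0. Among non-epithelial cells the summed level was 275 CPM [192–380] in 30 fibroblast-like, 463 CPM [429–499] in 196 endothelial-like, 529 CPM [432–642] in 31 thymocyte-like and 1141 CPM [940–1371] in 15 mesothelial-like cells. The median depth of these cells differed too, from 2431.5 UMIs in cluster 7 and 3190 in cluster 0 to 5344 in the microfold-like and 12125 in the cycling-like cluster, and its part was not tested.

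**Figure D4:**
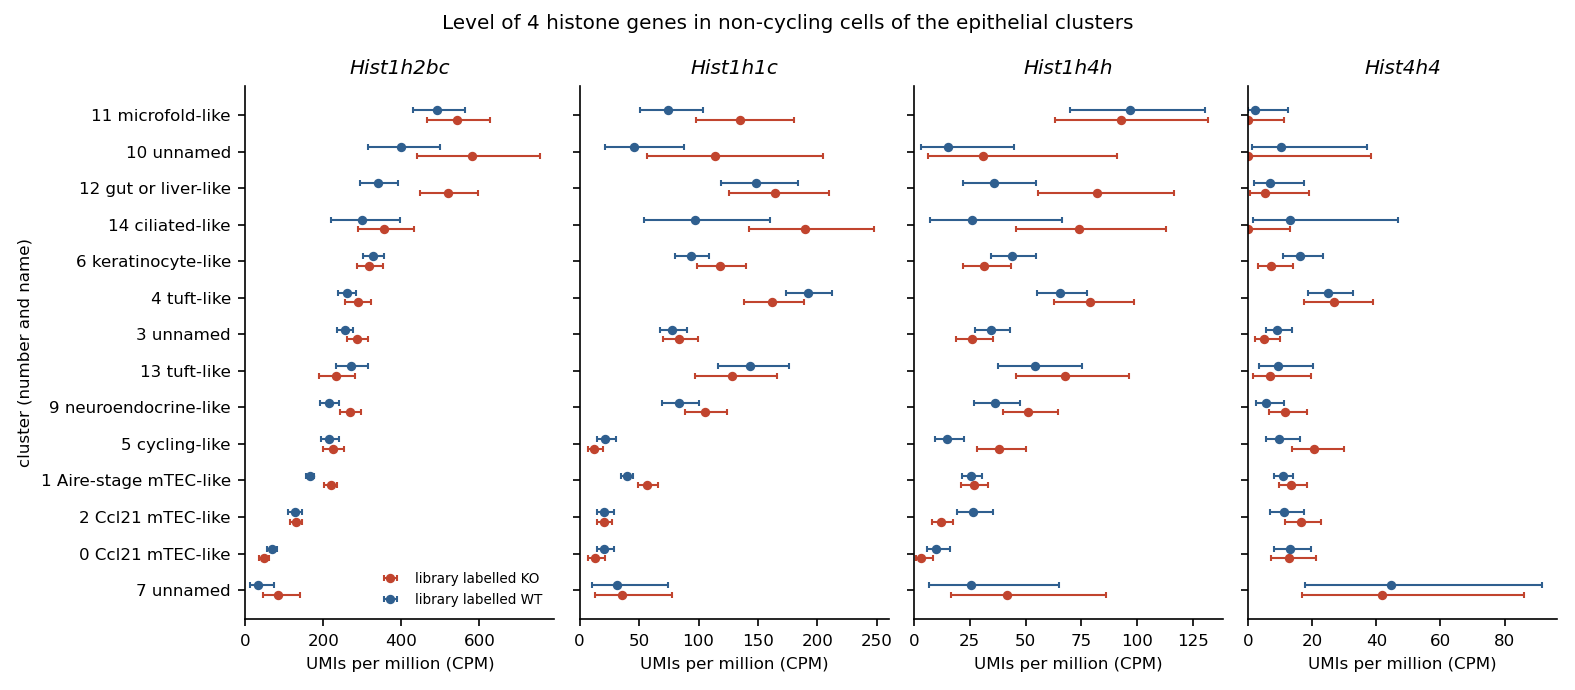
CPM (x axis, linear and different for each gene) of 4 histone genes in the non-cycling cells of the 14 epithelial clusters (y axis, ordered by Hist1h2bc), for each library, with exact Poisson 95% intervals that cover counting error only. Hist1h2bc, Hist1h1c and Hist1h4h are low in cluster 0. Over both libraries Hist1h2bc and Hist1h4h are highest in the microfold-like cluster, Hist1h1c in the larger tuft-like cluster and Hist4h4 in cluster 7. Other clusters are high too, such as the gut or liver-like cluster for Hist1h2bc.

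Between the libraries, the summed level differed little in non-cycling cells and more in cycling cells. The KO over WT ratio was 0.997 [0.968–1.03] in non-cycling cells and 1.26 [1.21–1.32] in cycling cells. Within the ranges it was 1.05 [0.973–1.13] in cells past both lists, 1.04 [0.975–1.1] past the G2M list alone and 1.24 [1.09–1.4] past the S list alone. Without Hist1h2bc these ratios were 1.04 [0.963–1.12], 0.884 [0.822–0.95] and 1.24 [1.07–1.43]. Past the G2M list alone the sum thus joins Hist1h2bc, higher under the KO label, with a remainder that was lower. The cells past both lists, which have the highest level, made up 36 of 224 and 30 of 249 cycling cells. With each cell weighted equally, the cycling level was 1229 and 1164 CPM. On the log2 scale the cycling ratio of 0.33 was 0.0902 when 6 list UMIs made a cell cycling and 0.0281 with cells thinned to 1000 UMIs. Of the cycling cells, 50% (KO) and 41.8% (WT) lay in the cycling-like cluster, and 17.4% and 25.3% in the Aire-stage cluster. The part of this mix in the pooled ratio was not tested beyond these within-range values.

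In cycling cells 36 members had 30 UMIs over both libraries. Past 1.5-fold, 11 were higher in the library labelled KO (8.77% of all 12786 genes with that minimum were) and 1 was lower (11.3% of all genes were). The median log2 KO over WT ratio was 0.27 over the members and -0.01 over all genes. The count of 11 became 3 when 6 list UMIs made a cell cycling and 4 with each cell weighted equally. The 11 spanned all classes: Hist1h1d and Hist1h1e (H1), Hist1h2ab, Hist1h2af, Hist1h2ai and Hist1h2an (H2A), Hist1h2bb and Hist1h2bc (H2B), Hist1h3c and Hist1h3e (H3) and Hist1h4i (H4). Hist1h1d had 17.9 against 6.21 CPM, a log2 ratio of 1.52 [0.73–2.37]. Hist1h2bc had 284 against 182 CPM, a log2 ratio of 0.64. In cells past the G2M list alone it had 442 against 256 CPM, and the libraries differed in the clusters that these cells lay in. In the cycling-like cluster, with 57 and 50 of them, Hist1h2bc had 462 CPM [414–515] against 360 CPM [317–407]. It was also higher under the KO label in the Aire-stage cluster (387 against 148 CPM), and lower in the ciliated-like cluster (181 against 498 CPM on 12 and 28 UMIs). In cluster 2 the library labelled KO had 8 such cells, with 921 CPM. Over the same cells Hist1h2ap had 206 CPM (KO) against 360 CPM (WT). It was lower under the KO label in the cycling-like cluster, at 307 CPM [268–351] against 633 CPM [575–694]. In the cycling-like cluster 1 cell of each library held 70 of the 220 (KO) and 88 of the 445 (WT) UMIs. In the Aire-stage cluster (101 against 77.2 CPM) and in cluster 3 (84.6 against 44.9 CPM) the direction of Hist1h2ap was the opposite, with overlapping intervals. The Aire-stage values rest on 26 and 46 UMIs, of which 1 cell of each library held 21 and 26. Those of cluster 3 rest on 4 and 5 UMIs, and all 4 came from 1 cell. The 1 lower member was Hist3h2ba, an H2B gene, with 4.46 against 7.45 CPM on 11 and 24 UMIs. It no longer passed when 3 list UMIs made a cell cycling, over all kept cells or without the highest doublet scores, and 6 members were lower with cells thinned to 1000 UMIs. The remaining members with the lowest ratios, Hist1h3a (4.46 against 6.21 CPM), Hist4h4 (8.12 against 10.2 CPM) and Hist1h4d (20.3 against 22.7 CPM), did not pass 1.5-fold.

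In non-cycling cells 37 members had 30 UMIs over both libraries. One of them was higher in the library labelled KO past 1.5-fold (6.81% of all 19109 genes were), and 6 were lower (8.63% of all genes were). The higher member was Hist1h2bh, at 1.5 against 0.738 CPM on 22 and 15 UMIs, and it did not pass with cells thinned to 1000 UMIs. The 6 lower were Hist2h2aa1, Hist1h2ap, Hist1h4m, Hist2h4, Hist1h2br and Hist1h4j, and 2 were lower at a minimum of 100 UMIs, where fewer members enter. Hist1h2ap had 7.1 against 14.9 CPM, with 37.9 against 77.8 CPM over all endothelial-like cells, the same direction, and 90.4 against 38.4 CPM on 14 and 8 UMIs over all thymocyte-like cells, the opposite one. The H2A sum had a KO over WT ratio of 0.783 [0.724–0.847] in non-cycling epithelial cells and 0.592 [0.479–0.73] in all endothelial-like cells. In the other non-epithelial cells it was 2.52 [1.33–4.96] in thymocyte-like cells, on 30 and 16 UMIs and in the opposite direction, 0.617 [0.149–2.42] in fibroblast-like and 1.62 [0.404–9.3] in mesothelial-like cells. Hist1h4m had 1.3 against 2.66 CPM, Hist2h4 1.16 against 2.17 CPM, Hist1h2br 1.71 against 2.81 CPM and Hist1h4j 1.71 against 2.61 CPM. These 4 rest on 19 to 25 UMIs in the library labelled KO.

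Hist2h2aa1, an H2A gene of the chromosome 3 locus, had the most UMIs of the 6, 157 and 439. It stood at 10.7 CPM [9.11–12.5] in the library labelled KO and 21.6 CPM [19.6–23.7] in the library labelled WT. The log2 ratio was -1.01 [-1.28 to -0.75]. By cluster, the ratio was below 1 in 10 of 14 clusters and above 1 in 3, and the library labelled KO had 0 UMIs in unnamed cluster 10. The whole interval was below 1 in 6 clusters. In unnamed cluster 3 it had 10 and 60 UMIs, or 6.4 [3.1–11.8] and 25.3 [19.3–32.6] CPM. In the keratinocyte-like cluster it had 10.7 [5.5–18.7] and 29.9 [22.4–39] CPM. In the cycling-like cluster it had 3.06 and 2.61 CPM, and in cluster 0 it had 9.35 and 6.53 CPM, where the intervals overlap. In cycling cells the levels were 13.8 and 14.3 CPM. In all endothelial-like cells they were 12.2 and 17.9 CPM (log2 ratio -0.55 [-1.54 to 0.47]). Of its 90-base stretches 88.3% also occur in Hist2h2aa2, which had 16 UMIs, and its model overlaps Gm20634 on the same strand. Whether the counting divided such reads or left them out is not known. The value therefore cannot be assigned to Hist2h2aa1 alone or to the pair.

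**Figure D5:**
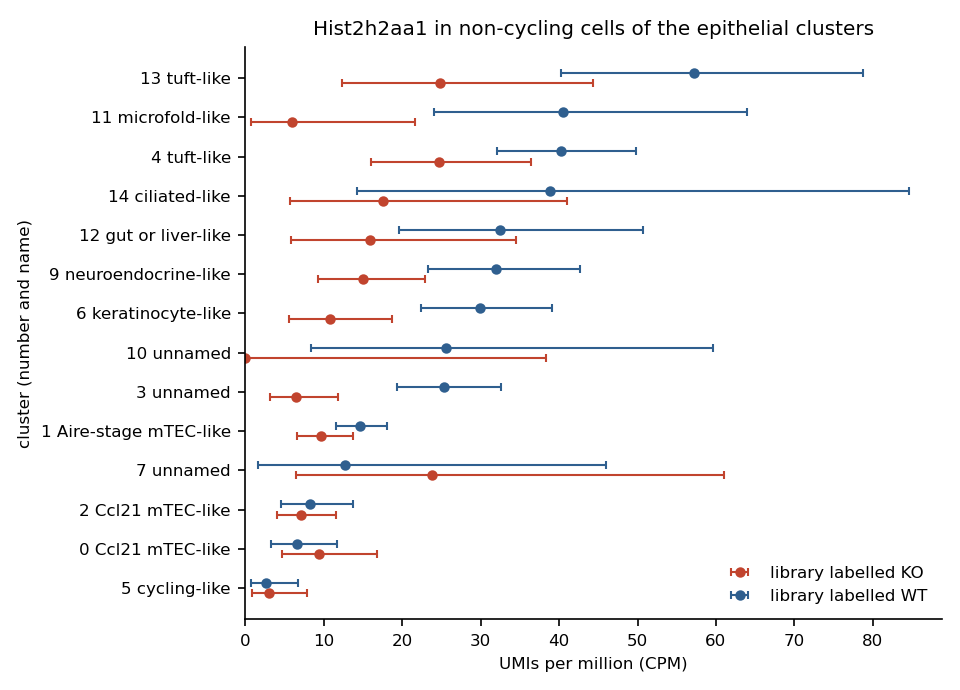
CPM of Hist2h2aa1 (x axis) in the non-cycling cells of the 14 epithelial clusters (y axis), for each library, with exact Poisson 95% intervals that cover counting error only. The library labelled WT is higher in most clusters, among them cluster 3 (25.3 against 6.4 CPM), and the intervals overlap in clusters 0, 2, 5 and 7, among others.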

How the data were processed

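The authors deposited raw UMI counts, 1 table for each library, and per the file headers they come from Cell Ranger 7.0.1. Seurat and the mm10 build are named in the submitters' processing notes. Chemistry, barcode calling and use of intronic reads: not given in the sources used here. A barcode was kept from 500 genes and 1000 UMIs upward if mitochondrial UMIs made up no more than 10% (3584 and 4037 cells). Both libraries were clustered together (scanpy 1.11.5, leidenalg 0.10.2, resolution 1) on 3000 variable genes, without the histone cluster genes. A cluster was named where at least 3 markers and 50% of a list were 2-fold higher and found in at least 10% of its cells. A shallow cluster with no gene of that list among its leading genes stayed unnamed. Cluster 7, with 4 of 7 Ccl21 mTEC markers and a depth of 0.323 relative to the library medians, was left unnamed in this way. These rules were set after the clusters were seen. Scrublet called 0 doublets and is taken not to have worked, so no doublet was removed in the main values. Levels are UMI sums scaled to CPM, with exact Poisson, conditional binomial or Clopper-Pearson intervals (scipy 1.17.1) that cover counting error only. Calls needed 30 UMIs, and 2-fold in both libraries (cycling against non-cycling) or 1.5-fold (KO against WT). The scripts were tested on simulated data. The genes and lists were chosen with earlier results of these data known. Genes were named by most UMIs, by highest and lowest ratio in each comparison, and as testis histones; others named were chosen after their values were seen. Promoters came from RefSeq and transcripts from GENCODE M21. Cutoffs, depth, filters, weighting, denominator, doublets and the dominant gene were varied, and 3 further alternatives were chosen after seeing the data. Epithelial cells shallower than 2000 UMIs (489 and 428) were in no cycle range.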

Additional observations from a re-analysis of the deposited data

Results flagged for a closer look

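Hist1h4i moved in opposite directions between the libraries in cycling and in non-cycling cells. Its log2 KO over WT ratio was 0.64 in cycling cells, on 136 and 114 UMIs, and -0.32 in non-cycling cells, on 159 and 275 UMIs. The second turned to 0.0901 when cycling cells were set by cluster. With 1 library for each label the difference was not tested. In cells past the S list alone it had 10.9 and 20.9 CPM, and in cells past the G2M list alone 78.7 and 45 CPM.

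Hist1h2bc moved in opposite directions between cycling and non-cycling cells in the libraries. Its log2 cycling over non-cycling ratio was 0.28 in the library labelled KO and -0.23 in the library labelled WT, and this difference was not tested either. Neither sign held under every alternative: the first became -0.0104 at 6 list UMIs and the second 0.0424 by cluster.

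The barcodes that failed the cell filter, which enter no comparison, also held UMIs of the members. The 693 barcodes of the library labelled KO had 436 such UMIs, or 547 CPM [497–601]. The 920 barcodes of the library labelled WT had 579, or 528 CPM [485–572]. Hist1h2ap alone stood at 30.1 and 22.8 CPM in them, above its 7.1 and 14.9 CPM in non-cycling epithelial cells, and Hist1h2bc at 172 and 184 CPM.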

How the results depend on the processing

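Values are log2 ratios in the order of the text. The KO over WT sum over all epithelial cells (0.07) was -0.11 with cells weighted equally, 0.10 with the stricter cell filter, 0.0363 without cells with thymocyte UMIs and 0.0351 without Hist1h2bc. In cycling cells (0.33) it was 0.0902 at 6 list UMIs, 0.0538 in cells past the G2M list alone, 0.0665 in cells past both lists, 0.0281 at 1000 UMIs per cell, 0.16 with cycling cells set by cluster and 0.0784 with equal weight. In cells past the G2M list alone it was -0.18 without Hist1h2bc. In non-cycling cells (-0.00479) it was -0.062 with equal weight and -0.11 without Hist1h2bc. The cycling over non-cycling sum of the library labelled KO (1.62) was 1.26 at 3 and 1.83 at 6 list UMIs, 1.16 at 1000 UMIs, 1.16 by cluster, 1.27 with equal weight, 1.70 without mitochondrial and ribosomal genes, 1.34 without the 5 cells with most member UMIs in each class and 2.20 without Hist1h2bc. That of the library labelled WT (1.28) was 0.98, 1.74, 1.09, 0.98, 1.12 and 1.36 under the first 6 of these, 1.34 with the stricter filter, 1.35 without cells with thymocyte UMIs, 0.98 without those 5 cells and 1.81 without Hist1h2bc. It stayed above 0 in every alternative run.

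The 31 members higher in cycling cells became 11 at a minimum of 100 UMIs, where fewer genes enter. Of members past 1.5-fold in cycling cells, the 11 higher under the KO label became 3 at 6 list UMIs, 4 at 1000 UMIs, 7 by cluster, 4 with equal weight, 19 and 3 at minimums of 10 and 100 UMIs, and 7 without the 5 cells. The 1 lower member became 0 at 3 and 2 at 6 list UMIs, 0 over all kept cells, 6 at 1000 UMIs, 4 with equal weight, 4 and 0 at minimums of 10 and 100 UMIs, 2 without the 5 cells and 0 without the highest doublet scores. In non-cycling cells the 1 higher member became 0 at 1000 UMIs, 2 by cluster, and 2 and 0 at minimums of 10 and 100 UMIs, and the 6 lower became 13 and 2 at those minimums. Of 588 values of single members, 520 moved within their interval, 64 moved further and 4 turned: Hist1h2bc to -0.0104 (KO, 6 list UMIs) and 0.0424 (WT, by cluster), Hist1h4i in non-cycling cells to 0.0901 and Hist4h4 in the library labelled KO to 0.17 (both by cluster). The cause of these shifts was not tested. No paired analysis was possible because each label has 1 library, and no replicate could be left out. Members under 30 UMIs are limited by depth.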
